A study of Rattus norvegicus with 4 samples.

Results

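The 10 macrophage receptor and phagocyte marker genes described here were followed in rat muscle after ischemia: the scavenger receptors Cd163 and Mrc1, the phagocyte and lysosomal markers Trem2, Cd68, Gpnmb and Lgals3, the secreted protein Spp1, the adhesion receptor Adgre1, and the Fc receptors Fcgr3a and Fcgr2b. They were taken by gene name, and the list was drawn up with earlier results of these data known. The names led to 15 probes and 11 genes, of 41012 probes and 35635 genes on the array. The additional gene is Fcgr2a, because the 3 probes that the files call Fcgr3 were assigned to Fcgr2a through the RefSeq gene table. Probe A_44_P168405 was assigned through its transcript. Probes A_43_P12955 and A_44_P482476 were assigned only because that table lists Fcgr3 as an older name of Fcgr2a, and their place in this gene was not tested. Adgre1 was found through the transcript of its 1 probe, which the files list under the older name Emr1, and the other 14 probes carried a member's name.

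The samples were gracilis muscles, a thin muscle of the inner thigh, from male Sprague-Dawley rats. Injured muscles had 4 h of ischemia and then 1, 3, 7 or 14 days of reperfusion, and each was set against a sham-operated muscle on the same 2-colour array. The injured RNA always carried the red dye Cy5 and the sham RNA the green dye Cy3, on 4 arrays in all, with 1 injured and 1 sham muscle a day and no dye swap. The labels give neither the rats' age, nor the time at which sham muscles were taken, nor whether 1 sham RNA served all arrays, and they list no unoperated muscle. Injured muscle is therefore described relative to operated muscle. No replicate stands behind the value of any day, so no day was tested, and "higher" and "lower" below mark a size of at least 2-fold (1 on the log2 scale) where they describe a call.

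Macrophages take up dead cells and debris, sort them into lysosomes and pass signals to the cells that rebuild the muscle. Scavenger receptors such as CD163 and the mannose receptor mark resident and repair-associated macrophages, while CD68, GPNMB and TREM2 mark cells loaded with ingested material. Fc receptors bind antibody, and the family holds activating and inhibitory members. In whole tissue, a change in the number of cells of a type and a change in the RNA per cell cannot be told apart.

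The Fc receptor genes Fcgr3a and Fcgr2b gave ratios of opposite sign on days 7 and 14, so the probes that measured them are shown first. All positions are those of the files, on the rat build rn4. The Fcgr3a probe lies at chr13:86877181-86877240 on the forward strand and the Fcgr2b probe at chr13:86809091-86809150 on the reverse strand. The Fcgr2a probes A_44_P168405 and A_44_P482476 lie at chr13:86905963-86906022 and chr13:86921308-86923192 on the reverse strand. Capitals mark the longest run of bases that a probe shares with a probe of another of these receptor genes. The brightest Fcgr2a probe, A_43_P12955, lies at chr13:86920647-86920706 on the reverse strand. Its sequence is not printed here but was part of the comparison, so a marked run may be shared with it.
Fcgr3a: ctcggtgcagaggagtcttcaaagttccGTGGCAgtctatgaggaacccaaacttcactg
Fcgr2b: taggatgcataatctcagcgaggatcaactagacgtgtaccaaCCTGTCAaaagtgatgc
Fcgr2a, probe A_44_P168405: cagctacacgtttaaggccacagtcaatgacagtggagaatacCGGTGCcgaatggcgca
Fcgr2a, probe A_44_P482476: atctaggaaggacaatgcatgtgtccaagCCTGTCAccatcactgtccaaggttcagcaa
The longest run common to probes of different Fc receptor genes was 7 bases of 60, so the probes are different sequences. They were compared with each other only, and whether a probe also binds the transcript of a related receptor was not tested. Exon and UTR annotation on this build was not used here.

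All 15 probes were well above background in both channels of all 4 arrays. Over all probes this held for 64.4% to 68.7% in the injured channel and 34.7% to 47.3% in the sham channel. Probes printed 10 times on an array had a spot-to-spot SD of 0.035 to 0.072 on the log2 scale, which is technical error within an array and leaves out differences between rats. Muscle fibre genes were measured on every array, and all 5 of the list (Ckm, Acta1, Myh4, Tnnt3 and Atp2a1) were lower in injured muscle on days 1 and 3, with medians of -2.97 and -3.76. On day 7, 1 of 5 was higher, and on day 14 3 of 5 were, with a median of 1.10, and none was lower on those days. Day 14 alone had a scan session to itself, and the other 3 days shared 1, so any effect of scanning on day 14 cannot be told apart from that of the day.

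**Figure D1:**
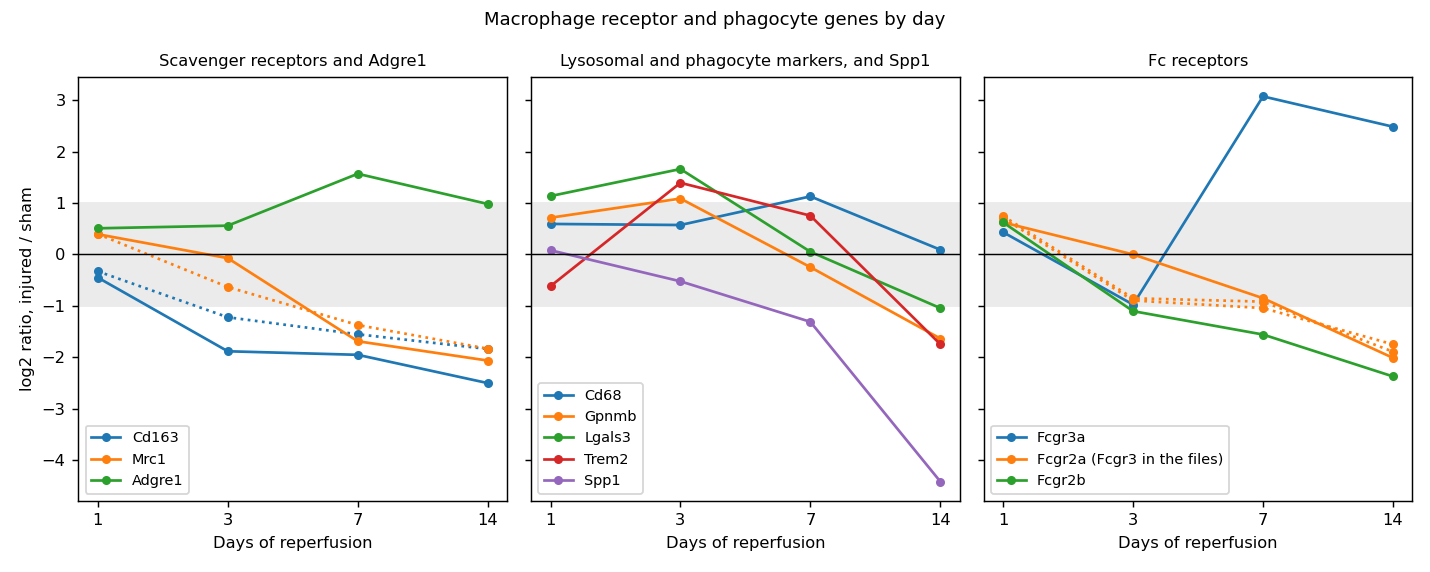
Log2 ratio of injured over sham muscle (vertical axis) by day of reperfusion (horizontal axis, days evenly spaced) for each gene, with 1 array per day. Solid lines are the brightest probe of a gene, dotted lines its other probes, and the grey band spans less than 2-fold; Fcgr3a leaves the other Fc receptors on day 7 at 3.07, and Spp1 reaches -4.42 on day 14.

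The 11 genes did not move as 1 group. On day 1, Lgals3 was the 1 member measured as at least 2-fold higher in injured muscle, and no member was lower. The brightest probe of Fcgr2a and the probe of Spp1 had saturated injured spots that day, so their ratios are lower bounds. Whether these probes reached 2-fold is not known. The other Fcgr2a probes were not saturated and were within 2-fold of sham, at 0.75 and 0.71. Among all 22938 genes measured that day, 1.24% were higher and 4.92% lower. On day 3 there were 3 higher members (Gpnmb, Lgals3 and Trem2), against 2.48% of all genes, and 2 lower ones (Cd163 and Fcgr2b), against 3.95%. Day 7 had 3 higher members (Adgre1, Cd68 and Fcgr3a), against 3.13% of genes, and 4 lower ones (Cd163, Fcgr2b, Mrc1 and Spp1), against 1.23%.

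By day 14 the balance lay on the low side. Fcgr3a was the 1 higher member, where 3.15% of genes were higher, and 8 of 11 were lower, where 1.56% were lower: Cd163, Fcgr2a, Fcgr2b, Gpnmb, Lgals3, Mrc1, Spp1 and Trem2. The median log2 ratio of the 11 genes was 0.51, -0.0006, -0.25 and -1.75 on days 1, 3, 7 and 14, beside 0.02, 0.03, 0.04 and 0.05 for all genes measured.

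These counts depend on how the dyes are balanced. The ratios above use loess, a curve fitted to each array across brightness. With each array centred on its median instead, the median of all genes became 0.37, 0.29, 0.27 and 0.27. Higher calls then made up 92.0%, 91.4%, 97.2% and 96.7% of all calls, against 20.2%, 38.5%, 71.7% and 66.8% with loess. Members numbered 9 higher on day 1 (21.8% of all genes were) and 0 lower (1.89%), and 6 higher on day 3 (17.2%) and 1 lower (1.62%). On day 7 there were 4 higher (11.6%) and 1 lower (0.332%), and on day 14 there were 2 higher (12.2%) and 6 lower (0.413%).

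The authors' deposited log ratios, made with the scanner software's own dye normalisation, gave higher shares of 58.4%, 67.4%, 68.2% and 72.8% of all calls. In them 1 member was higher on day 1 (12.0% of all genes) and 0 lower (8.54%), and on day 3 there were 3 higher (15.3%) and 3 lower (7.42%). Day 7 had 3 higher (17.3%) and 5 lower (8.05%), and day 14 had 2 higher (17.2%) and 8 lower (6.42%). All 22 member values past 2-fold kept their direction under median centring and in the deposited ratios, and 16 and 21 of them stayed past 2-fold.

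**Figure D2:**
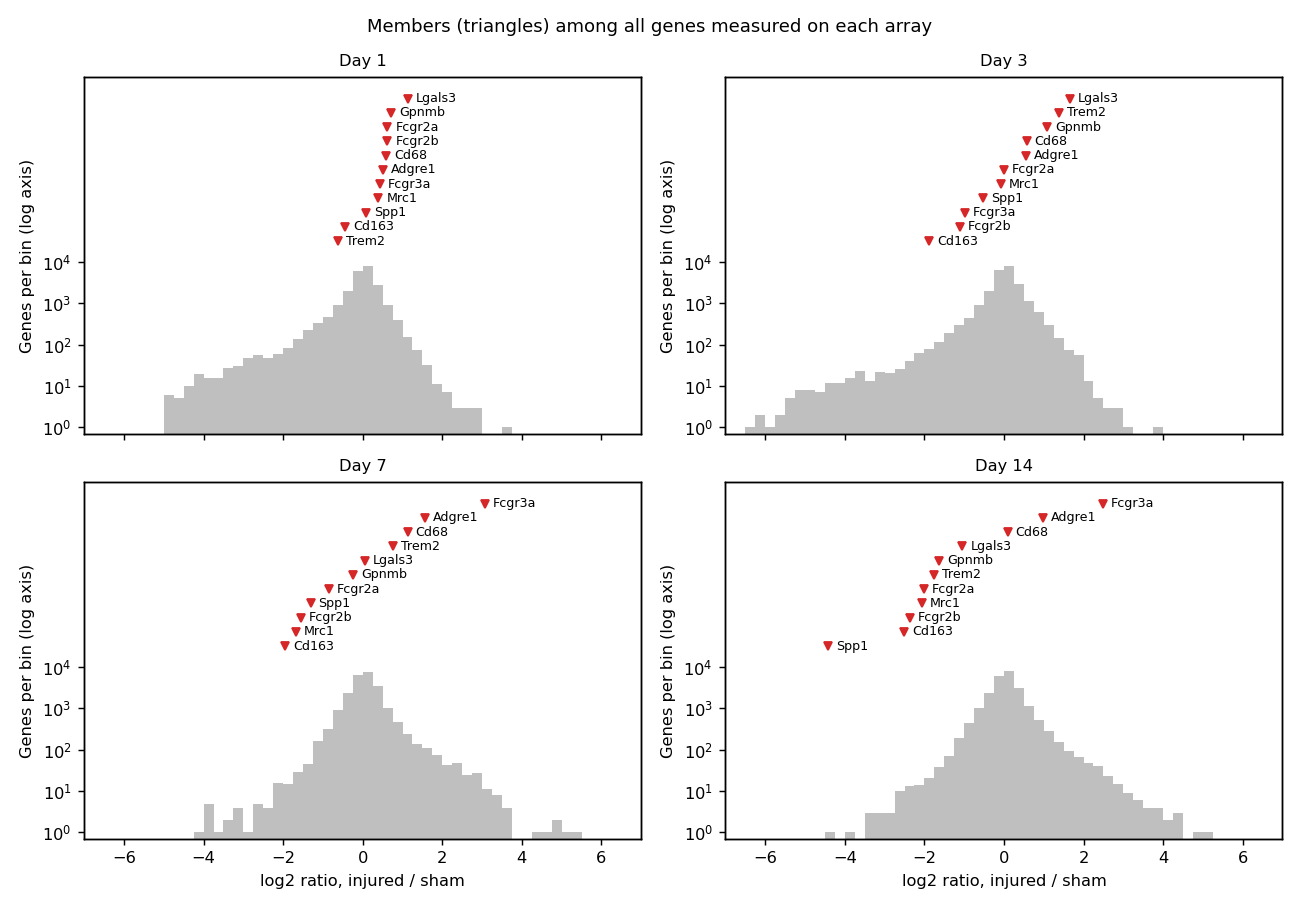
Number of genes per bin of log2 ratio (grey bars, log axis) on each day, with the 11 members as red triangles at their ratio (injured over sham), stacked in order so that names can be read. On day 14 Spp1 stands at the lower end of all genes and Fcgr3a among the higher ones.

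Cd163, the macrophage receptor that takes up hemoglobin bound to haptoglobin, was lower in injured muscle from day 3 on. Its level, the normalised log2 brightness of a channel, was 9.21, 7.93, 7.68 and 6.96 in injured muscle on days 1, 3, 7 and 14, against 9.66, 9.81, 9.63 and 9.46 in sham muscle. The injured level was below every sham level on all 4 days, and lowest on day 14. The ratio was -0.45, -1.88, -1.95 and -2.50, that is 3.69-fold, 3.87-fold and 5.66-fold lower on days 3, 7 and 14. With median centring the day 1 ratio was 0.63 and the others kept their direction. Only 19 of 23734 genes had a lower ratio on day 14. A dimmer Cd163 probe gave -0.33, -1.22, -1.55 and -1.84, the same order at smaller size. The probes lie at chr4:160407221-160407922 and chr4:160406765-160406920, spans longer than the 60 bases of a probe.

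Mrc1, the mannose receptor CD206, which takes up glycoproteins, reached a 2-fold difference later. It had levels of 12.92, 11.75, 9.38 and 10.25 in injured muscle and 12.53, 11.82, 11.07 and 12.31 in sham muscle. On days 1 and 3 the injured level lay within or just above the sham range, and on days 7 and 14 it lay below it. The sham level itself ranged over 1.46, the widest of the 11 genes. The Mrc1 ratio was 0.39, -0.07, -1.69 and -2.06, or 3.22-fold and 4.18-fold lower on the last 2 days, and with median centring it was 0.96 on day 3 and -0.96 on day 7. A second probe gave 0.40, -0.63, -1.37 and -1.83. The brightest probe lies at chr17:88492403-88492462.

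Cd163 and Mrc1 thus differed most on day 3, when the ratio was -1.88 for Cd163 and -0.07 for Mrc1. Of the other scavenger and lectin receptors on the array, 3 of 10 measured were higher and 1 lower on day 1, where 1.24% and 4.92% of all genes were. On day 3, 2 of 9 were higher and 1 lower, beside 2.48% and 3.95%. On days 7 and 14, 0 were higher and 1 lower, beside 3.13% and 1.23%, then 3.15% and 1.56%. Their median was -0.49 on day 3, but 0.53 with median centring. Msr1, the class A scavenger receptor, had ratios of 1.41, -1.56, -1.28 and -1.79. Clec4e and Clec4d, C-type lectin receptors of myeloid cells, stood at -0.61 and -0.55 on day 3. On that day Scarb1, the receptor for high-density lipoprotein, was at 1.12, and Colec12, a scavenger receptor of vascular cells, at 1.05. The other probe of each was within 2-fold of sham, at 0.35 for Scarb1 and -0.04 for Colec12.

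Adgre1 encodes the F4/80 antigen, an adhesion receptor used as a macrophage marker in rodents. Its level was 9.08, 9.14, 10.39 and 9.61 in injured muscle and 8.57, 8.58, 8.83 and 8.63 in sham muscle. Every injured level was above every sham level, with the highest on day 7. The ratio was 0.51, 0.56, 1.57 and 0.98, so that only day 7 (2.96-fold) passed 2-fold and day 14 (1.97-fold) lay just under it. The Adgre1 ratio exceeded that of Cd163 by 0.96, 2.44, 3.52 and 3.48. Thus Adgre1 was 2.96-fold higher on day 7 while Cd163 was 3.87-fold lower in the same pair of muscles. Other macrophage markers were mixed that day, with Csf1r at -0.40, Cd14 at -0.49 and Itgam at 1.34. The wider macrophage and monocyte list, given below, had a day 7 median of 0.03, with 4 of 21 higher and 1 lower.

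Of the 4 phagocyte and lysosomal markers, 3 were higher in injured muscle on day 3 and lower on day 14: Trem2, Gpnmb and Lgals3. Trem2, a lipid-sensing receptor of phagocytes, had levels of 11.26, 13.46, 12.56 and 9.92 in injured muscle, against 11.87, 12.07, 11.81 and 11.66 in sham muscle. The sham level ranged over 0.40 and the injured level over 3.54. The injured muscle was below sham on day 1, above it on days 3 and 7, and below it again on day 14. The ratio was -0.62, 1.39, 0.75 and -1.75, so Trem2 was 2.62-fold higher on day 3 and 3.35-fold lower on day 14. The direction on day 1 turned with median centring, to 0.69.

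Gpnmb, a membrane glycoprotein of lysosomes in loaded macrophages, ranged over 3.89 in injured muscle. It stood at 13.91, 14.27, 11.92 and 10.38 in injured muscle and at 13.19, 13.19, 12.17 and 12.01 in sham muscle. Its sham level was thus over 1 log2 unit higher on days 1 and 3 than on day 14. The ratio of Gpnmb was 0.71, 1.09, -0.25 and -1.64, or 2.12-fold higher on day 3 and 3.11-fold lower on day 14 (-0.89 with median centring). The day 3 ratio was smaller than the range of the sham level, 1.18. On day 7 the deposited ratio was -1.12 and the ratio with median centring 0.58, so the direction that day was not settled.

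Lgals3, galectin-3, a carbohydrate-binding protein secreted by macrophages, was higher in injured muscle on days 1 and 3. Its levels were 14.89, 15.27, 13.64 and 13.24 in injured muscle and 13.75, 13.62, 13.59 and 14.28 in sham muscle. The injured spot was saturated on days 1 and 3, so the ratios of those days are lower bounds. Lgals3 was at least 2.19-fold higher on day 1 and at least 3.16-fold higher on day 3, near sham on day 7 (0.05) and 2.06-fold lower on day 14 (-1.04). The last value rests on the sham level, which was highest on day 14: against the mean of the 4 sham levels it was -0.57, and with median centring -0.18.

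Cd68, a lysosomal membrane protein and the most used marker of macrophages in tissue sections, passed 2-fold on 1 day, day 7. Levels of 12.98, 13.16, 12.96 and 12.10 in injured muscle stood against 12.39, 12.59, 11.83 and 12.01 in sham muscle. The injured level was above sham on each array, and its own range over the days was 1.06. Cd68 had ratios of 0.59, 0.57, 1.13 and 0.09, with 2.18-fold on day 7 as its largest. Against the mean of the 4 sham levels the day 7 value was 0.75. The ratio of Cd68 less that of Gpnmb was -0.12, -0.51, 1.38 and 1.73, so the 2 markers parted on days 7 and 14. Trem2, Cd68, Gpnmb and Lgals3 have 1 probe each, at chr9:8059065-8059124, chr10:56481762-56481821, chr4:77182198-77182257 and chr15:23338947-23339006.

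Spp1 encodes osteopontin, a secreted ligand of integrins and CD44 that macrophages produce in injured muscle. With loess it was lower on days 7 and 14, and on day 14 it had the lowest ratio of the array. Its levels were 14.96, 14.94, 13.41 and 11.23 in injured muscle and 14.88, 15.46, 14.72 and 15.64 in sham muscle. The unnormalised brightness of the probe was 65535, 52758, 14096 and 3253 in injured muscle and 17093, 27099, 15708 and 36614 in sham muscle. Sham muscle was thus bright for Spp1 on every array, and brightest on day 14. The injured spot was saturated on day 1, where the ratio of 0.08 is a lower bound. With median centring the ratio was 1.69 on day 1 and 0.73 on day 3.

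The Spp1 ratio was -0.52 on day 3, -1.31 on day 7 and -4.42 on day 14, or 2.48-fold and 21.3-fold lower on the last 2 days. The day 7 value was within 2-fold with median centring (-0.37) and, at -0.9965, in the deposited ratios. None of the 23734 genes measured on day 14 had a lower ratio. Within injured muscle the level was at least 3.73 lower on day 14 than on day 1, and within sham muscle the range was 0.92. With the mean of the 4 sham levels as reference the day 14 value was -3.95. The probe lies at chr14:6422382-6422441 on the reverse strand.

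**Figure D3:**
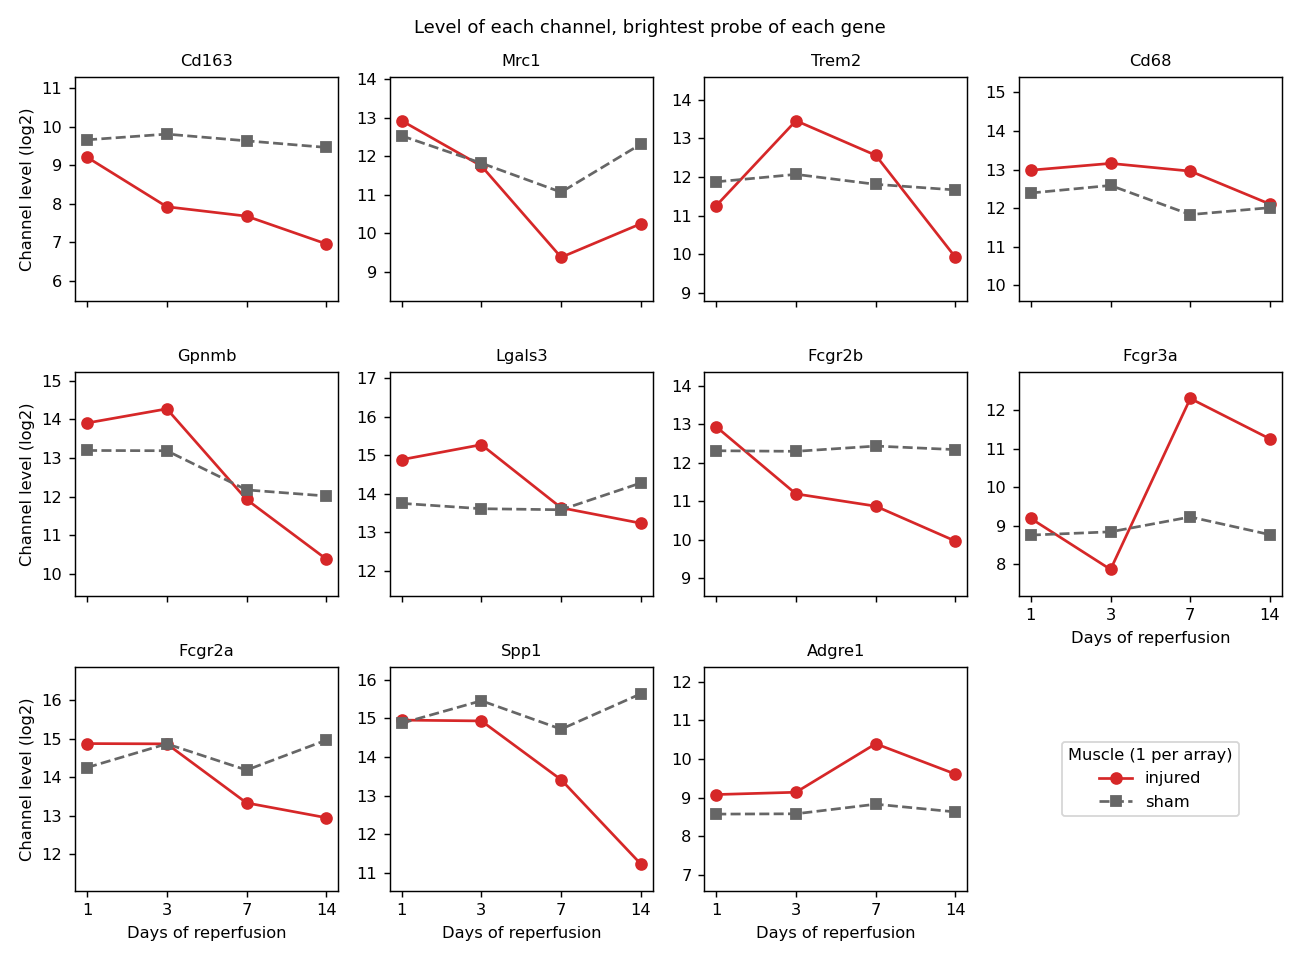
Level of each channel (log2 brightness after normalisation, vertical axis) by day of reperfusion for the brightest probe of each gene, with injured muscle in red circles and sham muscle in grey squares, 1 muscle per point. Each panel spans the same number of log2 units, so slopes can be compared between panels but heights cannot; sham lines are flat for Fcgr2b and vary most for Mrc1 and Gpnmb.

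The Fc receptors split after day 3. Fcgr3a, a low-affinity activating receptor for IgG, was the highest member on days 7 and 14. Its levels were 9.19, 7.87, 12.30 and 11.25 in injured muscle and 8.76, 8.85, 9.23 and 8.77 in sham muscle. Between day 3 and day 7 the injured level differed by 4.43, while the 4 sham levels ranged over 0.47. The Fcgr3a ratio was 0.43, -0.98, 3.07 and 2.48, so that day 3 lay just under 2-fold on the low side with loess. The day 3 value was -1.23 in the deposited ratios, -1.03 against the mean of the 4 sham levels and -0.22 with median centring. On day 7 Fcgr3a was 8.41-fold higher, with 23 of 23480 genes higher still, and on day 14 it was 5.59-fold higher, with 68 of 23734 above it.

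Fcgr2b, the inhibitory receptor for IgG, lay on the same side of sham as Fcgr3a on days 1 and 3. On days 7 and 14 it lay on the opposite side in the same muscles. Levels of Fcgr2b were 12.93, 11.19, 10.87 and 9.97 in injured muscle and 12.31, 12.30, 12.43 and 12.34 in sham muscle. The sham range of 0.14 was the narrowest of the 11 genes. The injured level was above all sham levels on day 1 and below all of them from day 3 on. Its ratio was 0.62, -1.10, -1.56 and -2.37, or 2.15-fold, 2.94-fold and 5.18-fold lower on days 3, 7 and 14, and 25 genes were lower still on day 14. With median centring it was -0.07 on day 3 and -0.75 on day 7, both within 2-fold, and -1.63 on day 14.

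Fcgr2a, an activating receptor that the array's design calls Fcgr3, lay nearer to Fcgr2b than to Fcgr3a on days 7 and 14. On day 3 which of them was nearer changed with the processing. With loess Fcgr3a less Fcgr2a was -0.98 and Fcgr2a less Fcgr2b 1.10 that day, and with median centring -1.46 and 1.31. Its brightest probe had levels of 14.87, 14.86, 13.33 and 12.95 in injured muscle and 14.25, 14.87, 14.19 and 14.96 in sham muscle. The ratio was 0.62, -0.0006, -0.85 and -2.01, a lower bound on day 1 because the injured spot was saturated. The probe A_44_P482476 gave 0.75, -0.85, -0.92 and -1.89, and A_44_P168405 gave 0.71, -0.90, -1.04 and -1.75. With median centring the brightest probe stood at 0.07 on day 7. The 3 probes parted on day 3 and were all lower on day 14 (4.03-fold for the brightest).

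Taken as a difference of ratios within an array, Fcgr3a less Fcgr2b was -0.19, 0.13, 4.63 and 4.85. Relative to sham, Fcgr3a thus exceeded Fcgr2b by 24.7-fold on day 7 and 28.9-fold on day 14. Because each difference comes from 1 array, centring shifts both genes alike, and the difference ranged from 4.58 to 5.29 on day 7 and from 4.73 to 5.19 on day 14 over all settings tried. The difference from Fcgr2a was -0.98, 3.92 and 4.49 on days 3, 7 and 14, and at most -0.19 on day 1, where Fcgr2a was saturated. No replicate stands behind these differences.

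Of the other Fc receptors and their signalling proteins, 2 of 11 measured were higher and 1 lower on day 1, none passed 2-fold on days 3 and 7, and 0 were higher and 2 lower on day 14. Of all genes measured, 1.24%, 2.48%, 3.13% and 3.15% were higher on days 1, 3, 7 and 14, and 4.92%, 3.95%, 1.23% and 1.56% lower. The list of Fc receptors and signalling proteins contains Fcgr2a. Its median was 0.77, 0.0024, -0.12 and -0.44, and 0.09 on day 14 with median centring. Fcgr1a, the high-affinity IgG receptor, had ratios of 1.45, -0.13, -0.30 and -1.25. Fgr and Lyn, Src-family kinases, were at 1.23 and 0.82 on day 1. Fcgrt, which recycles IgG within cells, was 2.37-fold lower on day 1 (-1.24) and within 2-fold of sham afterwards.

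The wider macrophage and monocyte list had its highest median on day 1, at 0.54. Of 21 genes measured, 9 were higher and 1 lower on day 1, 4 and 2 on day 3, 4 and 1 on day 7, and 3 and 2 on day 14. Among all genes, 1.24%, 2.48%, 3.13% and 3.15% were higher on those days, and 4.92%, 3.95%, 1.23% and 1.56% lower. With median centring 21.8% of all genes were higher on day 1, where the list median was 1.67. Itgam, the integrin CD11b of monocytes, macrophages and neutrophils, had ratios of 2.75, 2.02, 1.34 and -0.81. Coro1a, an actin-binding protein of leukocytes, was at 1.52 on day 1, and Itgb2, the partner chain of Itgam, at 1.46. C1qa, a chain of the complement protein C1q made by macrophages, was at -1.01 on day 1, but at 0.11 with median centring.

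Genes of lysosomes were called mainly on days 7 and 14: 1 of 26 was higher and 0 lower on day 1, 1 of 27 higher and 0 lower on day 3, 3 of 26 higher and 1 lower on day 7, and 3 of 27 higher and 5 lower on day 14. These counts stood beside 1.24%, 2.48%, 3.13% and 3.15% higher and 4.92%, 3.95%, 1.23% and 1.56% lower among all genes on the 4 days. The list medians were 0.34, 0.23, 0.19 and -0.22 with loess, and 1.48, 0.99, 0.86 and 0.43 with median centring. On day 1, Laptm5, a lysosomal membrane protein of blood cells, was at 1.01, the protease Ctss at 0.84 and the mannosidase Man2b1 at 0.74. These genes had the highest ratios of the list that day. Cd68 and Gpnmb, at 0.59 and 0.71, lay below them but above the list median of 0.34.

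Partners of TREM2 and genes of lipid handling had their highest median, 0.84, on day 7, when 5 of 11 were higher and 1 lower. The counts were 0 and 0 on day 1, 3 and 0 on day 3, and 3 and 1 on day 14. All genes had shares of 1.24%, 2.48%, 3.13% and 3.15% higher and 4.92%, 3.95%, 1.23% and 1.56% lower on days 1, 3, 7 and 14. Apoe, a lipid carrier that binds TREM2, was at 2.54 on day 7, Pltp, a phospholipid transfer protein, at 2.52, and Abcg1, a cholesterol exporter, at 2.14. The other Pltp probe was within 2-fold of sham on day 7, at 0.34. Fabp5, a fatty acid binding protein, was at -1.11 that day. Trem2 itself was at 0.75 on day 7, below its 1.39 on day 3. In the deposited ratios the list's largest median, 0.80, also fell on day 3.

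Genes for the uptake of apoptotic cells had medians between 0.13 and 0.24, with 1 of 15 higher and 1 lower on day 1, 3 of 14 and 0 on day 3, 2 of 14 and 0 on day 7, and 0 of 15 either way on day 14. On day 1 Anxa1, a protein that aids clearance of dying cells, was at 1.10, the GTPase Rac2 at 0.96 and the CD47 receptor Sirpa at 0.48. Gas6, a bridging ligand between dying cells and their receptors, was at -1.17 on day 1, but at 0.05 with median centring. Its 3 probes lay between -1.20 and -0.28 that day with loess. Partners of osteopontin and galectin-3 had a median of 0.29 on day 3, their highest with loess, when Itgav, an integrin chain that binds osteopontin, was at 1.21, the galectin Lgals1 at 0.85 and the integrin chain Itgb5 at 0.53. The other Itgav probe was at 0.08 that day. In the deposited ratios and against the mean sham level the highest median fell on day 7, at 0.69 and 0.31. Of these partners, 0 of 8 were higher and 1 lower on day 1, 1 of 8 and 0 on day 3, 1 of 7 and 0 on day 7, and 1 of 8 and 1 on day 14. Beside the uptake and partner lists, 1.24%, 2.48%, 3.13% and 3.15% of all genes were higher on these days. Lower were 4.92%, 3.95%, 1.23% and 1.56% of all genes.

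Markers of other cells moved over the same days. Their counts stand beside 1.24%, 2.48%, 3.13% and 3.15% of all genes higher on days 1, 3, 7 and 14. The shares lower were 4.92%, 3.95%, 1.23% and 1.56%. In the macrophage marker list (Csf1r, Cd14, Itgam, Aif1 and Lyz2), 4 of 5 were higher and 0 lower on day 1, 1 and 0 on days 3 and 7, and 0 and 1 on day 14, with medians of 1.13, -0.07, 0.46 and -0.81. Its summed unnormalised brightness ranged from 39119 to 135760 in injured muscle and from 18215 to 25254 in sham muscle, and all 5 genes were well above background in both channels. Of the neutrophil list, 2 of 6 measured were higher on day 1 (S100a8 at 2.50 and S100a9 at 2.62) and the same genes were lower on days 7 and 14, at -1.67 and -1.20, then at -2.83 and -2.57. Its summed brightness ranged from 723 to 22306 in injured muscle and from 1443 to 1905 in sham muscle. In the T and NK cell list, 0 of 5 measured were higher and 0 lower on day 1, 0 of 6 and 1 on day 3, 3 of 6 and 1 on day 7, and 3 of 7 and 1 on day 14. Cd3d and Cd3g, chains of the T cell receptor complex, were at 2.00 and 2.89 on day 7 and at 2.65 and 3.44 on day 14, the days when Fcgr3a was higher. Nkg7, a granule protein of NK and cytotoxic T cells, was at 1.19 and 1.90, while Cd8a was at -1.57 and -1.88. The list's summed brightness ranged from 2455 to 7994 in injured muscle and from 1750 to 1933 in sham muscle, with Cd3e not well above background in either channel on days 1, 3 and 7. Cd74, the invariant chain of antigen presentation from the dendritic cell list, was at 1.69 on day 7 and 2.05 on day 14. The fibroblast list had 0 of 5 higher and 2 lower on day 1, and 4, 3 and 3 higher with 0 lower on days 3, 7 and 14. The muscle fibre list summed to between 25151 and 226241 in injured muscle and between 65786 and 138305 in sham muscle. What part these cells have in the values of the 11 genes was not tested.

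An offset from sham held steady over the days was tested on the mean of the 4 arrays with limma, with the days as the only spread. Injured RNA always carried Cy5, so such an offset cannot be told apart from a dye effect on the probe. If 1 sham RNA served all arrays, the 4 ratios share it and the spread of sham muscles is not in the test. None of the 11 genes passed an adjusted p of 0.05, and neither did most genes: 37 of 20524 did (0.18%), while 4467 had an unadjusted p under 0.05, 3 members among them. By limma with Benjamini-Hochberg adjustment, Cd163 had a mean of -1.70 with an SE of 0.35 and an adjusted p of 0.127, and was below sham on 4 of 4 days. Adgre1 had 0.90 with an SE of 0.20 (adjusted p = 0.141 in limma) and Cd68 0.60 with an SE of 0.18 (adjusted p = 0.179 in limma), both above sham on 4 of 4 days. With median centring, limma called Adgre1 (mean 1.69, adjusted p = 0.00627) and Cd68 (mean 1.63, adjusted p = 0.00849), at a setting where 41.5% of all genes passed. Genes whose ratio changed sign over time, such as Trem2 with a mean of -0.05 and an SE of 0.56, are not what this test looks for.

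**Figure D4:**
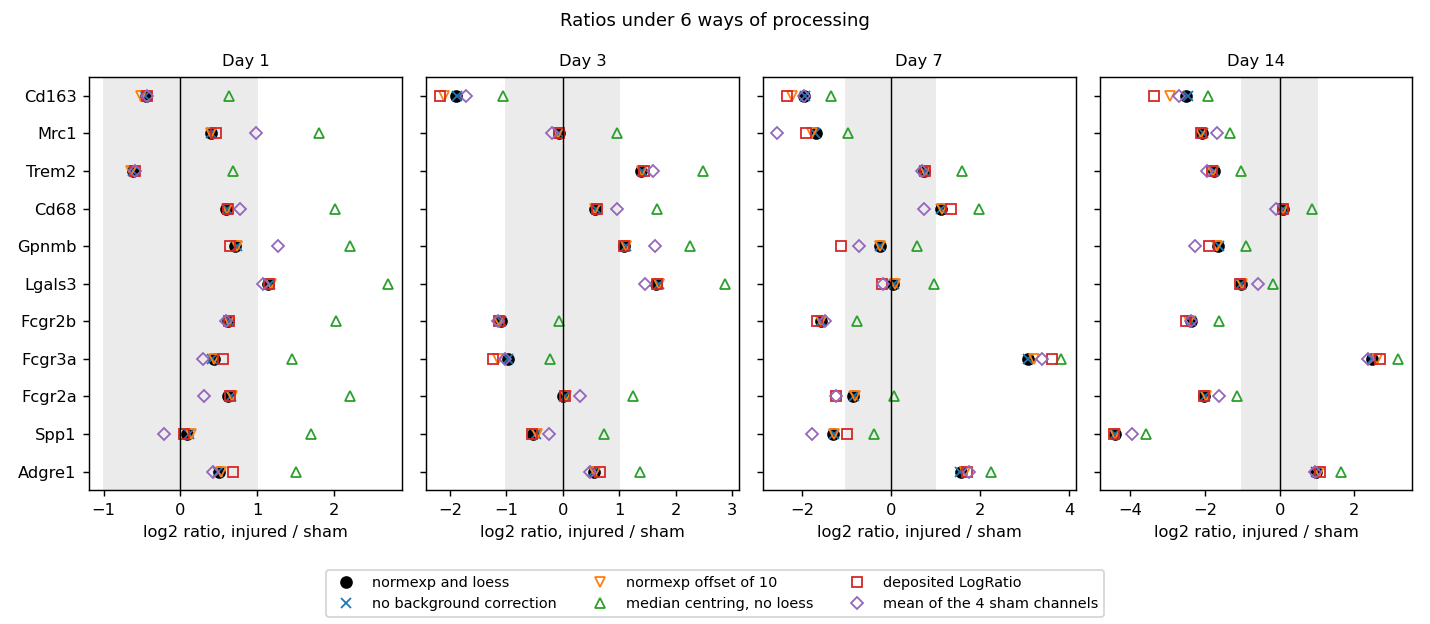
Log2 ratio (injured over sham, horizontal axes) of each member on each day under 6 ways of processing, with the grey band marking less than 2-fold. Median centring without loess (green triangles) lies to the right of the other settings on most days, while Fcgr3a on days 7 and 14 and Cd163, Mrc1, Fcgr2b and Spp1 on day 14 keep their side under all 6.

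For each member but Mrc1, the 2 named genes with the most similar ratios were found by Euclidean distance over the 4 log2 ratios, among 10841 genes measured on all arrays. Each distance rests on 4 arrays that all genes share. Fcgr3a lay nearest to Isg20 (0.50) and Ifi44 (0.54), and Fcgr2b to Pdpn (0.48) and Ctsl (0.72). Fcgr2a lay nearest to Amdhd2 (0.39) and Hmox1 (0.41). Cd68 was closest to Wasf2 (0.24) and Grn (0.26), Gpnmb to Ier5l (0.31) and Steap1 (0.46), and Adgre1 to Inpp1 (0.27) and Daxx (0.30).

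The first neighbours of Lgals3, Cd163, Trem2 and Spp1 lay farther away. The nearest to Lgals3 were Ttk (0.62) and Cyb5b (0.64), to Cd163 Prg4 (0.97) and Ier3 (1.10), and to Trem2 Ckap4 (1.17) and Angptl4 (1.21). Spp1 stood apart, with Fabp5 at 2.25 and Cxcl2 at 2.30 as its nearest genes.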

How the data were processed

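Total RNA was amplified, labelled by in vitro transcription and hybridised to Agilent 2-colour rat arrays, per the labels' protocols. The authors deposited the scanner output. Feature Extraction is version 10.5.1.1 per the file headers and 9.5.3 per the submitters' processing notes. For each spot they deposited the unnormalised intensity, as mean pixel brightness, and the median of its local background. The deposited LogRatio is a log10 of red over green after the software's background and dye normalisation, per the file headers, and the deposited p-value of a spot comes from the software's error model and was not used. The deposited value table holds log2 ratios and differed from the LogRatio by at most 0.005 over 40972 probes, with a median of 0.

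Ratios were computed with R 4.3.3 and limma 3.58.1: normexp background correction (offset 50), loess within each array, control and outlier spots at weight 0, and spots of a probe averaged. A gene was read from its brightest probe, and a gene was measured on a day if well above background in at least 1 channel. Levels of single channels came from quantile normalisation of mean brightness. Names were matched to a RefSeq gene table of assembly GRCr8, used for names only, for 19688 probes, and the others kept the file's name. Probe sequences and positions are those of the files. The mean over the 4 arrays was tested with lmFit and eBayes, two-sided, with Benjamini-Hochberg adjustment over all genes, after the steps were tested on simulated data.

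The members and gene lists were chosen with earlier results of these data known. The text names every member, 3 genes per list (those lying farthest on its median's side, on the day when that median was largest) with any opposite gene past 2-fold, markers that move with a result, and the 2 genes nearest to each member (those of Mrc1 are not reported here). Alternatives were no background correction, an offset of 10, median centring, the deposited LogRatio, the mean of the 4 sham levels, genes measured in both channels, the mean of all probes, a 1.5-fold line, and each array left out. The number of arrays limits the precision.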

Additional observations from a re-analysis of the deposited data

Results flagged for a closer look

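The dimmer Cd163 probe had sham levels of 8.24, 8.06, 8.26 and 8.27 on days 1, 3, 7 and 14. The day 3 level stood apart, with a gap to its nearest neighbour of 0.857 of the whole range, above Dixon's critical value for 4 samples. It was the 1 such case among the 15 probes, and no correction was made for their number. The whole range of the sham level of this probe was 0.21.

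Trem2, Gpnmb and Lgals3 were at least 2-fold higher than sham on 1 day or more and at least 2-fold lower on another. The highest day minus the lowest was 3.14 for Trem2 (day 3 and day 14), 2.72 for Gpnmb (day 3 and day 14) and at least 2.70 for Lgals3 (day 3, with a saturated injured spot, and day 14) on the log2 scale. The injured Lgals3 spot was saturated on day 1 too, so days 1 and 3 cannot be ranked. With 1 array per day the difference was not tested. With median centring, the day 14 value was -1.02 for Trem2, -0.89 for Gpnmb and -0.18 for Lgals3.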

How the results depend on the processing

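All 22 member values past 2-fold kept their direction under no background correction, an offset of 10, median centring, the deposited LogRatio, the mean of the 4 sham levels and the mean of all probes. Still past 2-fold were 22, 22, 16, 21, 20 and 22 of them. Median centring moved the counts of members most: 9 higher on day 1, 6 higher and 1 lower on day 3, and 1 lower on day 7. Against the mean of the sham levels, 2 were higher on day 1, and with a 1.5-fold line 5 were higher and 1 lower. On day 14, 2 were higher with an offset of 10, median centring, the deposited LogRatio and a 1.5-fold line. Over all genes, higher calls on days 1, 3, 7 and 14 numbered 285, 606, 734 and 748 with loess, 5002, 4198, 2723 and 2886 with median centring, 2753, 3751, 4052 and 4078 in the deposited LogRatio, 484, 1026, 1198 and 1214 with an offset of 10, and 1179, 1890, 1752 and 1939 at 1.5-fold. Lower calls were 1128, 967, 289 and 371 with loess, 433, 395, 78 and 98 with median centring, 1958, 1816, 1890 and 1524 in the deposited LogRatio, 1499, 1291, 482 and 656 with an offset of 10, and 2154, 1949, 1104 and 1370 at 1.5-fold. Limma's test of the mean called 37 genes, 8522 with median centring (2 of them members), 778 in the deposited LogRatio, and 0 to 8 with 1 array left out: 0 without day 1, 3 or 7, and 8 without day 14. With median centring the mean reversed for Fcgr2a (0.59), Gpnmb (1.03), Trem2 (0.94) and Mrc1 (0.12). With 1 array left out, the mean ranged from -0.39 to 0.52 for Gpnmb, which reversed without day 14 (0.52) or day 7 (0.05), and from -0.54 to 0.51 for Trem2, which reversed without day 14 (0.51) or day 1 (0.13). The cause was not tested. No paired analysis was possible because each group has 1 sample, so no replicate number links the days; each ratio already sets an injured against a sham muscle of 1 array. Saturated injured spots limit Lgals3 on days 1 and 3, and Fcgr2a and Spp1 on day 1.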

Other observations

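Genes of the lysosome list and of the macrophage and monocyte list that were picked after their values were seen took different courses. Ctsk, a collagen-degrading protease, had log2 ratios of -0.60, 1.46, 2.34 and 2.19 on days 1, 3, 7 and 14, and Acp5, the tartrate-resistant acid phosphatase, had -0.55, 0.58, 2.37 and 1.86. The other genes of the lysosome list past 2-fold on day 14 were Ctss, at 1.00, and 5 on the low side. The other Ctss probe was within 2-fold of sham that day, at 0.75. Among those 5, the proteases Ctsl, Lgmn, Ctsd and Ctsb were at -2.27, -1.74, -1.71 and -1.14, and the membrane protein Cd63 was at -1.27.

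The 3 chains of C1q were all higher on days 7 and 14. C1qa stood at 3.55 and 2.91, C1qb at 2.61 and 2.43, and C1qc at 2.39 and 2.14. On the same days Lyve1, a hyaluronan receptor of lymphatic vessels and some resident macrophages, stood at -2.06 and -1.95, after 1.46 on day 3, but its other probe was at 0.33 on day 3 and at -0.42 and -0.43 on days 7 and 14.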
